A study of Mus musculus with 10 samples.

Results

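The Id factors, the inhibitory Smads and the receptors Bmpr1a and Bmpr2 were examined in RNA pulled down with the RNA-binding protein MEX3A from cultured adult neural stem cells. The genes were chosen by symbol (Id1, Id2, Id3, Id4, Smad6, Smad7, Bmpr1a and Bmpr2), and 7 of these 8 were found among the 15899 genes of the deposited matrix. Id1 was not analysed here. The cells were neurosphere cultures, floating aggregates of neural stem cells (NSCs) and their progeny, derived from the subependymal zone (SEZ) of 10-week-old mice and kept in EGF and FGF. Cultures came from Mex3aFLAG/FLAG mice (FLAG), in which both endogenous Mex3a alleles encode a FLAG tag at the end of the protein, or from mice of the same background without the tag (WT), and both kinds went through the same anti-FLAG immunoprecipitation (IP). RNA-immunoprecipitation sequencing (RIP-seq) was carried out on crosslinked cells (2 FLAG and 2 WT libraries) and on native, non-crosslinked cells (3 FLAG and 3 WT libraries). WT libraries therefore hold RNA recovered without a tagged protein. No RNA of the cultures before the IP was used here, so a difference in how much of a transcript the FLAG and WT cultures contained cannot be told apart from a difference in its pulldown, nor can fewer cells with a transcript be told apart from less transcript per cell.

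Bone morphogenetic proteins (BMPs) bind a complex of type I and type II receptors, in which the type II receptor activates the type I receptor, which in turn phosphorylates the transducing Smads. These enter the nucleus with Smad4 and activate target genes, among which the Id genes are the best known. Id proteins are helix-loop-helix factors without a DNA-binding region, and they hold back pro-neural factors by pairing with the E proteins that those factors need. In the SEZ, BMP signals and Id factors are known for keeping NSCs in a glial, self-renewing and often quiescent state, and the inhibitory Smads close a negative feedback loop on the pathway.

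All genes lie on GRCm38 and are protein coding. The Id genes are compact. Id2 (ENSMUSG00000020644) lies on the minus strand of chromosome 12 from 25093799 to 25097140, Id3 (ENSMUSG00000007872) on the plus strand of chromosome 4 from 136143497 to 136145755, and Id4 (ENSMUSG00000021379) on the plus strand of chromosome 13 from 48261228 to 48266026. Smad6 (ENSMUSG00000036867) spans 63953076 to 64022059 on the minus strand of chromosome 9. The receptor genes are the longest of the set. Bmpr1a (ENSMUSG00000021796), which encodes a type I receptor, runs from 34410734 to 34503341 on the minus strand of chromosome 14, and Bmpr2 (ENSMUSG00000067336), the type II receptor, from 59763400 to 59879014 on the plus strand of chromosome 1. The antisense gene A330033J07Rik overlaps an exon of Id4, and its own log2 value differed by 0.09 ± 0.48 (SE, FLAG minus WT, all libraries). Whether reads were counted by strand is not given in the sources used here, so Id4 reads and antisense reads may be mixed. Gm49291 also overlaps an exon of Id4 and Gm17110 an exon of Bmpr1a, both from the opposite strand, and the same limit holds for them.

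MEX-3 proteins of the worm recognise an RNA element, the MEX-3 recognition element (MRE), and this element was looked for in the 3' UTR of every gene (the longest one annotated), where such proteins are known to bind. The MRE was read as 2 parts of 4 letters each, the first ending in AG and the second starting with T, separated by a gap of 0 to 8 letters, on the transcript strand only. It was searched in a form whose second part ends in TA and in a form whose second part ends in AT, and some matches overlap. The following matches of the first form are shown because they are the only distinct positions in the short 3' UTRs of Id2, Id3 and Smad6, or the match nearest to the stop codon in Id4, Bmpr1a and Bmpr2. Capitals mark the 2 parts of the MRE, the lower-case letters are the gap and 6 flanking bases on each side, and each sequence is written 5′ to 3′ in the sense of the transcript.
Id2, chr12:25094056-25094071, minus strand: ttaattAGAGttttcttgTATAgtggca
Id3, chr4:136145272-136145281, plus strand: tctataATAGagTATAtagctt
Id4, chr13:48263430-48263442, plus strand: tttaaaATAGatgatTATAacaggg
Smad6, chr9:63953347-63953359, minus strand: aattatGGAGtcattTTTAcaacgt
Smad6, chr9:63953213-63953223, minus strand: ttttaaAGAGaatTATAcagtag
Bmpr1a, chr14:34414516-34414529, minus strand: caatttTGAGggagaaTTTAgactgc
Bmpr2, chr1:59870985-59870992, plus strand: tgtgcaATAGTCTAtagacc

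All 7 genes held the first form at least once, and so did 79.1% of the 12177 protein-coding genes of the matrix with an annotated 3' UTR. Id2 had 1 match in 785 nt and Id3 had 2 overlapping matches in 536 nt. In other genes with a 3' UTR of similar length (0.8 to 1.25 times that of the gene), the share with a match was 73.9% for Id2 and 58.2% for Id3. Id4 had 11 matches in 3093 nt. The receptors had the most matches, 13 in the 3810 nt of Bmpr1a and 24 in the 8529 nt of Bmpr2, and of the 3' UTRs as long as theirs 99.5% and 100% had one. Smad6 had 2 matches in 448 nt and Smad7 had 4 in 1570 nt. Per kb of 3' UTR and beside genes with a 3' UTR of similar length, there were more matches in Id3 (3.73 against 2.12), Id4 (3.56 against 2.67), Smad6 (4.46 against 2.05) and Bmpr1a (3.41 against 2.77), fewer in Id2 (1.27 against 2.29) and Bmpr2 (2.81 against 3.21), and about as many in Smad7 (2.55 against 2.54). The second form was absent from Id2 and Id3 and present in the other 5 genes, with 6 matches in Id4, 2 in Smad6, 7 in Smad7, 11 in Bmpr1a and 26 in Bmpr2, against 79.3% of all genes with at least 1. In this form there were more matches per kb than in genes with a 3' UTR of similar length in Smad6 (4.46 against 2.01), Smad7 (4.46 against 2.34) and Bmpr1a (2.89 against 2.56), fewer in Id4 (1.94 against 2.51), and about as many in Bmpr2 (3.05 against 3.08). Overlapping matches were each counted, in these genes as in all others, and the excess of Id3 in the first form rests on 2 that share 1 position. A match says only that these letters are present.

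**Figure D1:**
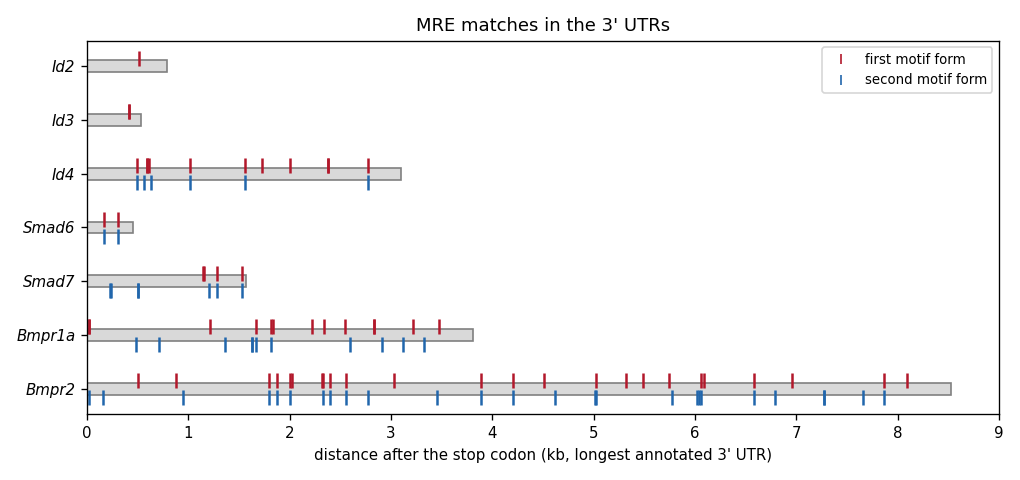
Grey bars are the longest annotated 3' UTRs of the 7 genes, drawn to scale from the stop codon (kb), with red ticks for matches to the first form of the MRE and blue ticks for the second. Matches run along the whole 3' UTR of Bmpr2 (24 and 26), whereas Id2 has 1 match of the first form and Id3 has 2 that overlap, with none of the second form in either.

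Mex3a, the tagged gene, was above every WT library in every FLAG library of both protocols, with log2 values of 3.92 to 4.16 against 2.75 to 3.03 in crosslinked and 4.03 to 6.10 against 2.89 to 3.52 in native libraries (log2 fold change 1.73 ± 0.37 (SE), adjusted p = 0.0789 in limma over all libraries). Of 8 NSC and astroglial markers 7 were measured, Gfap not being analysed here, and their mean log2 values ran from 1.05 (Prom1), 3.37 (Pax6) and 3.99 (Sox2) to between 7.24 and 8.48 (Nes, Slc1a3, Fabp7 and Vim). Their log2 fold changes of FLAG over WT lay between -0.44 (Slc1a3) and 1.01 (Vim), with Sox2 at 0.98 and Fabp7 at 0.79, and none was called. Of 6 endothelial markers 4 were measured. Their summed linear value was 15.2 to 26.3 over FLAG and 9.88 to 14.2 over WT libraries, and of the 4 only Flt1 was called higher in FLAG (log2 fold change 2.23, adjusted p = 0.0468, limma over all libraries), while Pecam1, Kdr and Tek had log2 fold changes of -0.58, -1.09 and -0.74. Microglial (3 of 6 measured), oligodendrocyte (2 of 6), neuronal (3 of 6) and ependymal (4 of 6) lists overlapped between FLAG and WT, except that the ependymal sum was lower in FLAG (18.3 to 23.7) than in WT (24.7 to 28.2). Of the ependymal genes, Dnah11, Cfap43 and Spef2 had log2 fold changes of -0.45, -0.34 and -0.96 and Foxj1 had 0.35, and none was called. The part of these cell types in the values below was not tested. FLAG native replicate 2 received the lowest array weight in a limma fit of the 4 groups (0.189, against 0.33 to 2.8 in the others). Results whose call rests on it are given with and without it. FLAG native replicates 1 (weight 0.33) and 3 (0.721) had 329 and 178 genes at their lowest value, against 1 to 3 in each other library. Native fits without replicate 2 rest on these libraries for FLAG.

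The genes differed widely in how much of their RNA was recovered. On a linear scale, with values divided by the annotated exonic length in kb, Bmpr1a had the highest level in native WT libraries (13.9 ± 0.105, SD, n = 3), followed by Bmpr2 (7.51 ± 0.0587) and Id3 (3.03 ± 1.63). Id2 (0.38 ± 0.218), Smad6 (0.287 ± 0.171), Smad7 (0.164 ± 0.0759) and Id4 (0.141 ± 0.125) were lower by an order of magnitude or more than Bmpr2. Each of these 4 overlapped its neighbour in the order, while the libraries of Bmpr1a, Bmpr2, Id3 and Id2 were separate from each other. In native FLAG libraries Bmpr1a (14.6 ± 1.37, n = 3) and Bmpr2 (11.3 ± 3.47) overlapped, and their order turned with the longest transcript as length (15.5 for Bmpr1a and 15.7 for Bmpr2), Id3 was at 3.58 ± 0.714 and Id2 at 1.47 ± 0.757. In crosslinked libraries the order of the leading 4 was the same, with Bmpr1a at 13.9 ± 0.181 in WT and 14.8 ± 0.257 in FLAG (n = 2 each). The low genes often shared their exact value in a library with other genes. Smad7 was 1 of up to 122 genes at the same value and Id4 was 1 of up to 96, whereas Bmpr1a was 1 of up to 4 and Bmpr2 was never tied.

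None of the 7 genes passed the test of FLAG over WT. On the deposited scale Id2 and Id4 had larger log2 fold changes than Bmpr2, but with 8 added to the linear values the order turned in the crosslinked, native and all-library fits (Bmpr2 0.40, Id2 0.30 and Id4 0.14 over all libraries). In the fit over all 10 libraries with the protocol as covariate, the libraries were treated as independent. Crosslinked and native libraries of 1 genotype and number deviated together, however (r from 0.154 to 0.388). A random block of genotype and replicate number cut the calls among all genes from 42 to 7 higher and from 37 to 8 lower. In the fit without this block, a gene was called at an adjusted p under 0.05 and a log2 fold change over 0.58 in either direction. By that rule 0 of the 7 genes were called, beside 0.264% of all genes called higher and 0.233% called lower in FLAG. At an unadjusted p under 0.05 in limma, 3 of the 7 were higher in FLAG (Id2, Id4 and Bmpr2), against 11.2% of all genes, and none was lower, against 9.85%. All 7 log2 fold changes were above 0, with a median of 0.42, whereas 46.8% of all genes were above 0 and 53.2% below, with a median of -0.03.

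Id2 was separate between FLAG and WT in both protocols. Its log2 values were 1.34 and 1.20 in FLAG and -1.26 and 0.85 in WT after crosslinking, and 2.31, 0.57 and 2.11 in FLAG and -0.00, 0.51 and -1.46 in WT in native libraries. Every FLAG library was above every WT library of its protocol, though FLAG native replicate 2 exceeded WT native replicate 2 by a narrow margin. Over all libraries the log2 fold change was 1.78 ± 0.52 (SE), or 3.43-fold, and larger than in 99.4% of all genes, with an unadjusted p of 0.00588 and an adjusted p of 0.125 in limma. Without WT crosslinked replicate 2 the log2 fold change was 2.15 and the adjusted p fell to 0.0496, in a fit that called 1.14% of all genes higher. Without WT crosslinked replicate 1 the adjusted p was 0.25. Without FLAG native replicate 2 the log2 fold change was 2.05 (adjusted p = 0.0532), in a fit that called 3.25% of all genes higher. Over all the alternatives tried the adjusted p of Id2 ran from 0.000724 to 0.305. The WT libraries of Id2 spread over more than 2 log2 units, and its level is low, so the size of the difference depends on low values: with 1 added to the linear values the log2 fold change was 1.02, with 8 added it was 0.30.

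Id4, which in neural stem cells is known for a strong association with quiescence, was the least abundant of the set in WT. Its log2 values were -0.15 and 0.82 in FLAG and -1.77 and -0.86 in WT after crosslinking, and 0.22, -0.17 and 1.07 in FLAG and -2.08, 0.13 and -1.78 in WT in native libraries. The groups were separate after crosslinking, as they were, in the same direction, in 19.1% of all genes. They overlapped in native libraries through WT native replicate 2, which was above FLAG native replicate 2. The log2 fold change over all libraries was 1.63 ± 0.48 (SE), with an unadjusted p of 0.00657 and an adjusted p of 0.129 (limma). Without FLAG native replicate 2 it was 1.78 (adjusted p = 0.0708) over all libraries and 1.89 (adjusted p = 0.127) in native libraries, and over all alternatives its all-library adjusted p ran from 0.0003 to 0.314. With 1 added to the linear values it was 0.66 and with 8 added it was 0.14.

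Id3 was the most abundant Id factor and did not separate by genotype to a comparable degree. In crosslinked libraries its log2 values were 2.72 and 2.75 in FLAG and 2.66 and 2.71 in WT, a difference of 0.05 ± 0.09 (SE). These groups were separate by a narrow margin, as they were, in the same direction, in 19.1% of all genes. In native libraries they were 2.93, 2.34 and 2.71 in FLAG and 2.68, 2.95 and 1.10 in WT. A single library, WT native replicate 3, lay below all the others, and without it the native log2 fold change turned from 0.42 to -0.15. Over all libraries it was 0.27 ± 0.31 (SE; 95% interval -0.42 to 0.96; adjusted p = 0.597, limma), and -0.06 without that library.

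**Figure D2:**
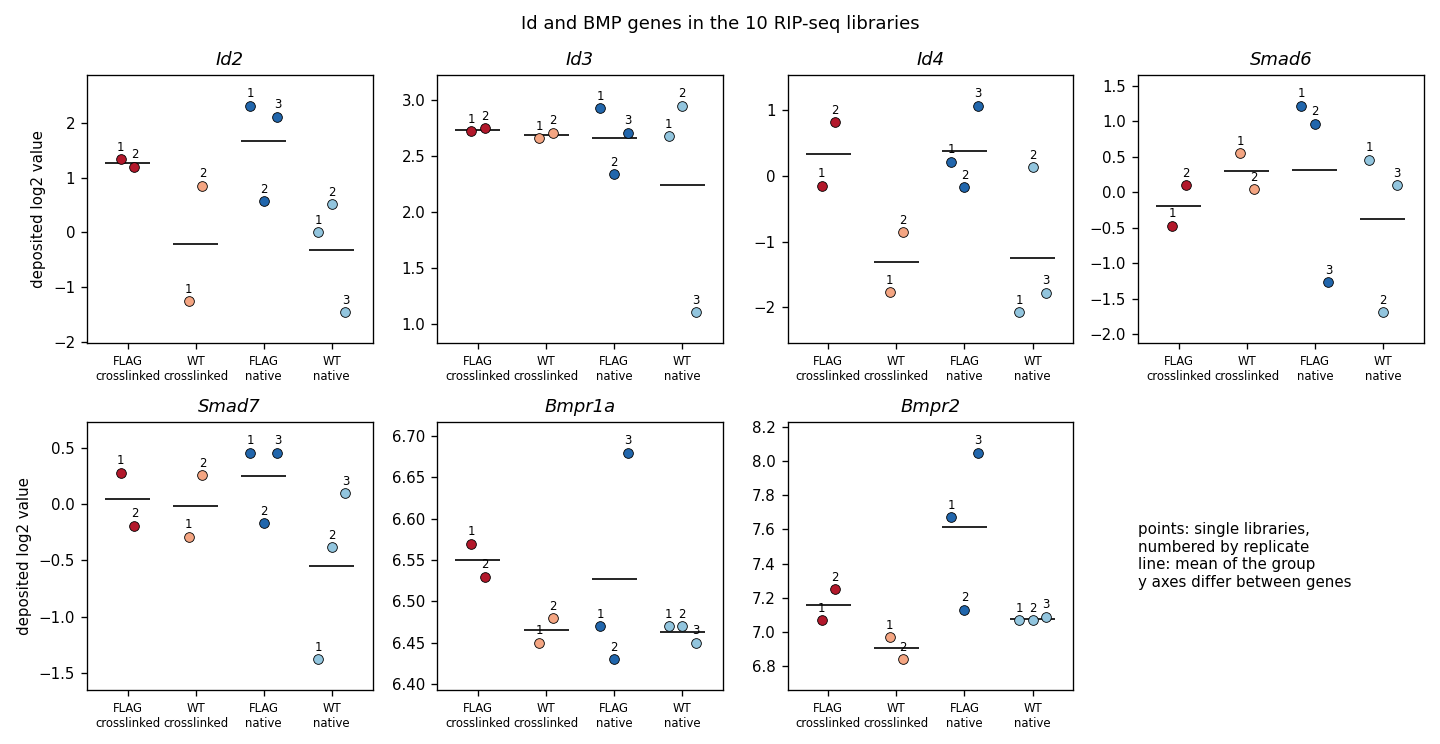
Deposited log2 values of the 7 genes in the 10 libraries, with each point a library numbered by replicate, each line the mean of its group, and a separate y axis for each gene. Every FLAG point of Id2 and Bmpr2 lies above the WT points of its protocol, Id4 overlaps in native libraries only, and Bmpr1a stays between 6.43 and 6.68.

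The inhibitory Smads showed no separation of FLAG from WT. Smad6, which acts mainly on the BMP branch, had log2 values of -0.47 and 0.10 in FLAG and 0.55 and 0.05 in WT after crosslinking, and of 1.22, 0.97 and -1.26 in FLAG and 0.46, -1.69 and 0.10 in WT in native libraries. Its log2 fold change was -0.49 ± 0.34 (SE) in crosslinked and 0.69 ± 0.82 in native libraries. With 1 library left out, these values ran from -0.77 to -0.20 and from 0.03 to 1.47. The test of the difference between the protocols gave 1.18 ± 1.17 (adjusted p = 0.97, limma). The all-library value of 0.22 turned to -0.28 with array weights and to between -0.20 and -0.03 when any 1 of FLAG native replicate 1, FLAG native replicate 2 or WT native replicate 2 was left out. Smad7 (ENSMUSG00000025880; chromosome 18, 75367529 to 75395935, plus strand), which inhibits both BMP and TGF-beta receptors, had log2 values of 0.28 and -0.19 in FLAG and -0.29 and 0.26 in WT after crosslinking, and of 0.46, -0.17 and 0.46 in FLAG and -1.38, -0.38 and 0.10 in WT in native libraries. Its groups overlapped in both protocols, and over all libraries its log2 fold change was 0.51 ± 0.35 (SE; 95% interval -0.27 to 1.29; adjusted p = 0.391, limma), and it was 0.24 without WT native replicate 1.

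Of the receptors, Bmpr2 was higher in FLAG libraries by a small amount. Its log2 values were 7.07 and 7.25 in FLAG and 6.97 and 6.84 in WT after crosslinking, and 7.67, 7.13 and 8.05 in FLAG and 7.07, 7.07 and 7.09 in WT in native libraries. Every FLAG library was again above every WT library of its protocol, which made Id2 and Bmpr2 the 2 of 7 genes with this arrangement in both protocols, against 4.84% of all genes. The native WT libraries lay within 0.01 (SD) of 7.08, and FLAG native replicate 2 was barely above them. The log2 fold change over all libraries was 0.42 ± 0.16 (SE), or 1.34-fold, with an unadjusted p of 0.0208 and an adjusted p of 0.18 (limma), under the fold threshold. In native libraries it was 0.54 ± 0.23 (SE; adjusted p = 0.29), 0.78 without FLAG native replicate 2 (adjusted p = 0.0144) and 0.32 without FLAG native replicate 3 (adjusted p = 0.605), and its adjusted p ranged from 0.0144 to 0.718 over the alternatives.

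Bmpr1a was the steadiest of the set. Its log2 values ranged from 6.43, in FLAG native replicate 2, to 6.68, in FLAG native replicate 3, over all 10 libraries. The crosslinked FLAG libraries (6.57 and 6.53) were above the WT libraries (6.45 and 6.48), and the native groups overlapped. After crosslinking Id2, Id3, Id4 and Bmpr2 were separate in this direction too, against 19.1% of all genes, while Smad6 and Smad7 were not. Over all libraries the log2 fold change was 0.07 ± 0.08 (SE), and its 95% interval, -0.11 to 0.26, leaves out a change of the size of the fold threshold in either direction.

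**Figure D3:**
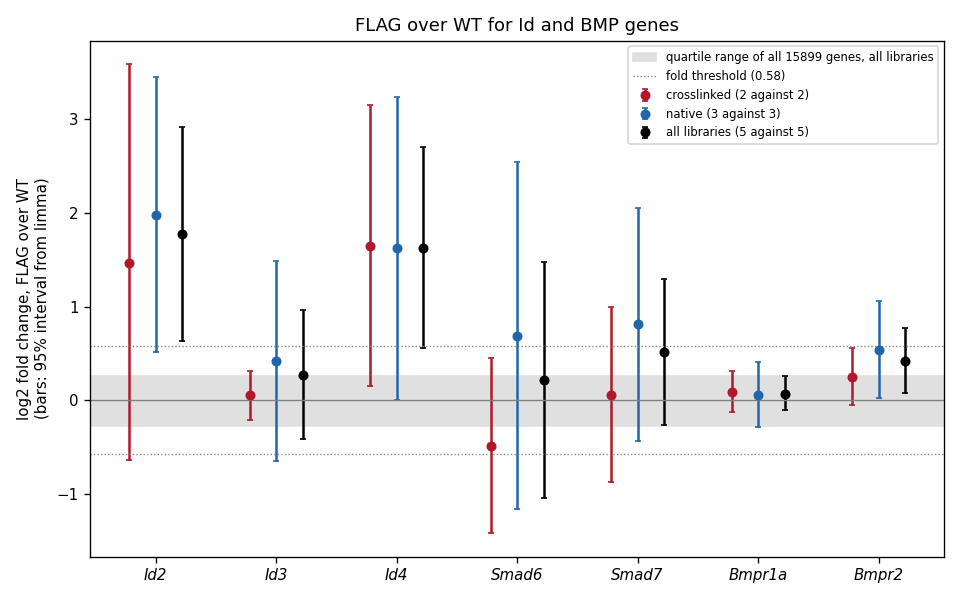
Log2 fold change of FLAG over WT for the 7 genes in crosslinked (2 against 2), native (3 against 3) and all libraries (5 against 5), with 95% intervals from limma; the grey band runs from the lower to the upper quartile of all genes in the all-library fit (-0.28 to 0.26; -0.15 to 0.13 in crosslinked and -0.39 to 0.37 in native libraries, not drawn) and dotted lines mark the fold threshold. Id2 and Id4 sit between 1.47 and 1.98 in every fit with wide intervals, and Bmpr1a sits between 0.06 and 0.09 with narrow ones.

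Within the protocols the count of calls was the same, while the values differed. The median log2 fold change of the 7 genes was 0.09 in crosslinked libraries, with 6 of 7 above 0 (46.3% of all genes), and 0.69 in native libraries, with 7 of 7 above 0 (47.4%). In crosslinked libraries 0 of 7 genes were called (0% of all genes higher and 0% lower), and only Id4 had an unadjusted p under 0.05 (0.0377; log2 fold change 1.65 ± 0.54 (SE); adjusted p = 0.61, limma), against 5.48% of all genes higher and 2.22% lower at that level. Id2 had a log2 fold change of 1.47 ± 0.76 there, which became 0.42 without WT crosslinked replicate 1 and 2.53 without WT crosslinked replicate 2, so its size rested on which of the 2 WT libraries was kept. In native libraries 0 of 7 were called as well (0% of all genes higher and 0.107% lower), while Id2 (log2 fold change 1.98 ± 0.65 (SE), unadjusted p = 0.014, adjusted p = 0.25) and Bmpr2 (unadjusted p = 0.0443) were under 0.05 before adjustment, against 8.38% of all genes higher and 8.37% lower. Id4 stood at 1.62 ± 0.71 (unadjusted p = 0.0505). The difference between the protocols was tested in 1 fit of all 4 groups and was not called for any of the 7 (adjusted p from 0.97 to 0.996, limma; 0 of 7 with an unadjusted p under 0.05, against 0.233% of all genes higher and 0.195% lower in native than in crosslinked libraries). Beside this test 0% of all genes were called. Its intervals were wide for the low genes, -1.95 to 2.96 for Id2 and -2.38 to 2.30 for Id4, and narrower for Bmpr1a (-0.44 to 0.38).

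The count in native libraries depended on FLAG native replicate 2. Without this library Id2 (log2 fold change 2.53, adjusted p = 0.0271 in limma, in a range of 0.0239 to 0.718 over the alternatives) and Bmpr2 were called higher, 2 of 7 genes, in a fit that called 9.12% of all genes higher. With array weights, estimated anew within each fit, Id2 (2.39), Id4 (2.42) and Bmpr2 (0.75) were called in native libraries, beside 10.4% of all genes. Over all libraries Id2 (2.17) and Id4 (2.30) were called with such weights, beside 6.95% of all genes. Set against the WT mean of its protocol, Id2 was at 2.63 and 2.43 log2 units in FLAG native replicates 1 and 3 and at 0.89 in replicate 2, and Bmpr2 was at 0.59 and 0.97 in the former and at 0.05 in the latter. Id3 (0.10) and Bmpr1a (-0.03) were also close to WT in replicate 2. Smad6 did not follow this order, with 1.35 in replicate 2 and -0.88 in replicate 3.

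**Figure D4:**
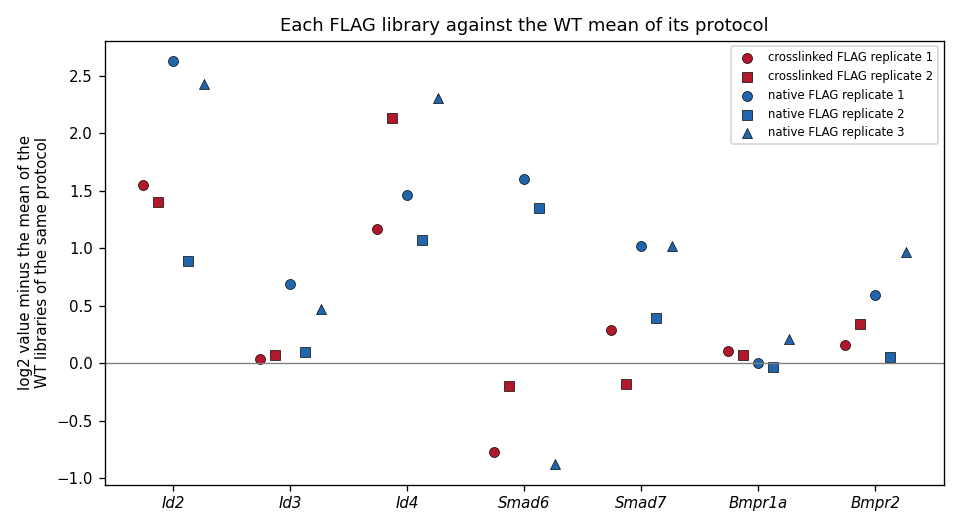
Each FLAG library's log2 value minus the mean of the WT libraries of the same protocol, for the 7 genes, with red for crosslinked and blue for native and a marker shape for each replicate. FLAG native replicate 2 (blue squares) is the lowest native point of every gene but Smad6, with 0.89 for Id2 and 0.05 for Bmpr2, and all 5 libraries lie above 0 for Id2, Id3, Id4 and Bmpr2.

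Crosslinking was also compared with native conditions within each genotype. In WT libraries 0 of the 7 genes were called (0.044% of all genes higher and 0.289% lower, limma) and 0 had an unadjusted p under 0.05 (3.71% of all genes higher and 3.77% lower), with log2 differences of crosslinked minus native between -0.17 for Bmpr2 and 0.68 for Smad6. In FLAG libraries 0 of 7 were called too (0.044% of all genes higher and 0.396% lower) and 0 had an unadjusted p under 0.05 (7.1% of all genes higher and 8.31% lower). The nearest was Bmpr2, lower after crosslinking by a log2 difference of -0.45 ± 0.23 (SE, adjusted p = 0.372), and it was called lower without FLAG native replicate 2 and with array weights, in fits that called 9.08% and 5.69% of all genes lower.

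The rest of the pathway was described from a list of 55 further genes by role, of which 34 were in the matrix. In the all-library comparison 0 of these 34 were called in either direction (0.264% of all genes higher and 0.233% lower), 15 had a log2 fold change above 0 (46.8% of all genes), and their median was -0.03, the same as over all genes. At an unadjusted p under 0.05, 5 were higher in FLAG and 1 was lower, against 11.2% and 9.85% of all genes. Calls appeared in 3 of the alternative fits. Without FLAG native replicate 2, Smad5, Smad9 and Tob1 were called higher and Tgfbr2 lower (3.25% of all genes higher and 1.17% lower). With array weights Hey1, Smad9 and Tob1 were called higher and Tgfbr2 lower (6.95% and 6.06%), and without WT crosslinked replicate 2 Smad9 was called higher and Tgfbr2 lower (1.14% and 1.38%). Among the 4 transducing Smads, Smad9, a BMP-branch Smad of low level here, had log2 values of 0.06 to 0.25 in FLAG and -1.99 to -1.12 in WT after crosslinking, and of 0.48 to 1.35 in FLAG and -2.35 to -0.38 in WT in native libraries. Its log2 fold change over all libraries, 2.10 ± 0.42 (SE; adjusted p = 0.0625, limma), was 0.87 with 1 and 0.19 with 8 added to the linear values, and all its FLAG libraries were above the WT libraries of their protocol. Smad5, the transducing Smad with the highest mean value, had a log2 fold change of 0.76 ± 0.21 (adjusted p = 0.118) and the same separation in both protocols. Of the 34 genes, 4 had every FLAG library above WT in both protocols (Smad9, Smad5, Tob1 and Skil; 4.84% of all genes) and 1 had every FLAG library below (Tgfbr1, chosen for this after its values were seen; 4.47% of all genes).

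Of the 6 intracellular negative regulators, Tob1, which binds BMP Smads and restrains proliferation, had log2 values of 2.98 to 3.35 in FLAG and 2.03 to 2.31 in WT after crosslinking, and of 2.82 to 5.12 in FLAG and 0.97 to 2.55 in WT in native libraries. With all libraries its log2 fold change came to 1.77 ± 0.45 (SE; adjusted p = 0.101, limma). Over the alternatives tried it ran from 0.88 to 2.05 and its adjusted p from 0.000651 to 0.258. Skil, a Smad corepressor, had 0.54 ± 0.20 (adjusted p = 0.186) and its relative Ski, with the highest mean value of this role, -0.16 ± 0.10. The value of Skil ran from 0.35 to 0.68 with 1 library left out. Among the secreted modulators, Twsg1, which binds BMPs together with chordin, had 0.56 ± 0.20 (adjusted p = 0.168; 0.26 to 0.70 over the alternatives) and Bmper, with the highest mean value, -0.20 ± 0.14. In the TGF-beta and activin branch, Tgfbr2, the type II receptor for TGF-beta, had log2 values of 4.31 to 4.60 in FLAG and 4.60 to 5.43 in WT after crosslinking and of 3.80 to 4.84 in FLAG and 5.07 to 5.51 in WT in native libraries, with a log2 fold change of -0.89 ± 0.24 (SE; adjusted p = 0.109) over all libraries. Smad3, with the highest mean value of that branch, had -0.16 ± 0.15.

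The remaining roles held no gene with an unadjusted p under 0.05. Bmp7, the ligand with the highest mean value, had a log2 fold change of 0.01 ± 0.22 (SE), the co-receptor Neo1 0.01 ± 0.10, and the type I receptor Bmpr1b 0.20 ± 0.14. Hey1, a further BMP target that is also known as a Notch target, had 0.55 ± 0.36 (adjusted p = 0.364, limma). Tcf4, with the highest mean value of the 3 E proteins with which Id factors pair, had -0.06 ± 0.09, with a 95% interval of -0.27 to 0.15.

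**Figure D5:**
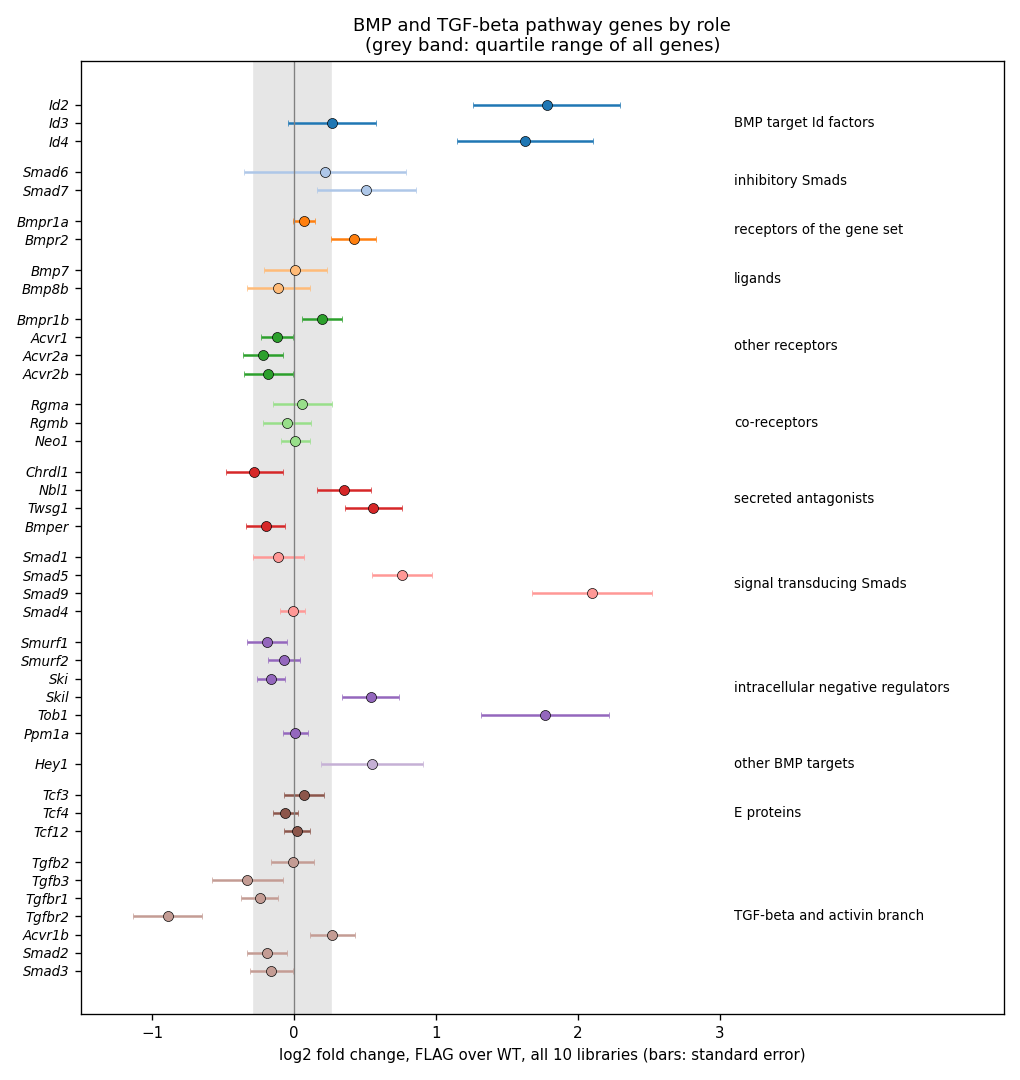
Log2 fold change of FLAG over WT in all 10 libraries for the 41 measured genes of the pathway list, grouped by role, with bars for the standard error and a grey band from the lower to the upper quartile of all genes (-0.28 to 0.26). Id2, Id4, Smad9 and Tob1 lie at 1.63 or higher, most others lie in or near the band, and Tgfbr2 is the lowest at -0.89.

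The genes whose values ran most like those of the set were taken by Pearson correlation of log2 values over the 10 libraries, among 12707 genes with a mean log2 value above 1, as a description without a test. These libraries share the 4 groups and 1 normalization. Bmpr2 was followed most closely, by Actr2 and Capza2 (r = 0.991 each). Id2 ran with D030047H15Rik and Stt3b (0.953 each), Id3 with Mrpl4 (0.981) and Psmg2 (0.956), and Id4 with Cpox (0.954) and Adipor1 (0.946). Smad6 ran with 1500002F19Rik (0.915) and AC154377.1 (0.912), Smad7 with Mef2b (0.929) and Dpf1 (0.927), and Bmpr1a with Gnal (0.95) and Cnih4 (0.946). Within the set, r was 0.83 between Id2 and Id4 and 0.68 between Bmpr1a and Bmpr2, and it was -0.10 between Smad6 and Smad7.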

How the data were processed

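RNA from 10 anti-FLAG RIP-seq libraries was prepared with a stranded kit and random hexamers, without poly-A selection. Per the labels and methods, the authors trimmed reads with cutadapt and Trimmomatic, mapped them to GRCm38 with HISAT2, counted them with featureCounts and normalized the counts, for which the methods name DESeq2 and the submitters' processing notes limma. The deposited values are log2 values with nearly the same distribution in every library, a step not given in the sources used here. Whole reads could not be recovered, so the depth per library is unknown and no count model was fitted. The values were tested as deposited, without a pseudocount, in limma 3.58.1 (R 4.3.3; lmFit, then eBayes with its trend option) and Benjamini-Hochberg adjustment over 15899 genes, and called at adjusted p under 0.05 and a log2 fold change over 0.58. The linear value is 2 to the power of the deposited value. Annotation, exonic lengths and 3' UTRs were taken from GENCODE M21 (GRCm38), where 15864 genes were found, all 7 of the set among them. The motif was searched as a pattern in Python 3.11.15. Named genes beyond the set were those of the pathway list with unadjusted p under 0.05 over all libraries, the most abundant of each role, and the 2 most correlated with each gene of the set. The genes, lists and tests were chosen with earlier results of these data known. The methods describe biological replicates, but the labels do not say which cultures or animals they came from, so p-values measure only the spread between these libraries.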

Additional observations from a re-analysis of the deposited data

How the results depend on the processing

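The number of the 7 genes called was 0 in every comparison and stayed 0 under added pseudocounts (1 and 8), median centring, repeated quantile normalization, removal of length and GC trends, other moderation, 1 fit of 4 groups and a filter on mean log2 values above 1, which kept only 3 of them (Id3, Bmpr1a and Bmpr2). Array weights raised it to 3 in native libraries, 2 over all libraries and 1 for crosslinked over native in FLAG. Leaving out 1 library gave 0 to 2 in native libraries, 0 to 1 over all libraries and 0 to 1 for crosslinked over native in FLAG. The cause was not tested. Equal replicate numbers of FLAG and WT did not deviate together in native libraries (r from -0.43 to -0.149), so the numbers were not taken as pairs. Crosslinked groups hold 2 libraries each, whose deviations mirror each other, so the sign of r there (-0.274) only follows the numbering. Crosslinked and native libraries of 1 genotype and number did deviate together (r from 0.154 to 0.388), though for the same reason the cases within a genotype are not independent. The all-library fit treats these libraries as independent. With the replicate block 0 genes of the set were called in each comparison. With crossed numbers in the crosslinked libraries 0 of 7 were called, and a random block of genotype and replicate number, which like the crossed numbers was chosen after seeing the data, also called 0 over all libraries and for crosslinked over native. Over all libraries that random block (consensus correlation 0.327) cut the calls among all genes from 42 to 7 higher and from 37 to 8 lower. Array weights reversed Smad6 to -0.45 in native and -0.28 in all libraries. Leaving out 1 library gave ranges across 0 for Smad7 crosslinked (-0.22 to 0.34), Id3 native (-0.15 to 0.77), Bmpr1a native (-0.01 to 0.11), Id3 over all (-0.06 to 0.45) and Smad6 over all (-0.20 to 0.58). With the longest transcript as length, native WT levels per kb moved to 14.8 for Bmpr1a and 10.5 for Bmpr2, and in native FLAG Bmpr2 (15.7) then stood above Bmpr1a (15.5). Of the single-gene fold changes, 183 values with 1 library left out and 294 under other settings kept their direction and stayed uncalled, while 9 and 8 became called. Staying uncalled does not mean a stable size: with 8 added to the linear values, the all-library value fell under the fold threshold for Id2 (0.30), Id4 (0.14) and Smad9 (0.19). Depth is unknown, which leaves the counting error of the low genes (Id2, Id4, Smad6 and Smad7) unmeasured.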
